A study of Mus musculus with 4 samples.

Results

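The nuclei described here were picked from single-nucleus RNA-seq of mouse testis by a gate on smooth muscle genes, which mark the peritubular myoid cells of the tubule wall. A barcode was kept when it had at least 500 UMIs (unique molecular identifiers, which count captured RNA molecules) and between 500 and 5000 detected genes. It was gated when at least 3 of the 8 genes Acta2, Myh11, Actg2, Tagln, Cnn1, Myocd, Synpo2 and Lmod1 had at least 1 UMI. The gate took 245 of 43625 kept barcodes, and these are called gated nuclei here. Testes came from 8-week-old male mice, with 2 libraries from WT mice and 2 from Dhx37-/- mice. The study made the Dhx37-/- mice by crossing a floxed Dhx37 allele with an AMH-Cre transgene, whose promoter drives Cre in Sertoli cells, so the gate was not aimed at the cells that the deletion targets, and 2 gated nuclei also passed a Sertoli gate. The labels call the libraries biological replicates, and give neither a further genotype for WT nor the number of animals in a library. Because the libraries are the replicates, UMIs were summed over the gated nuclei of each library before any test, and p-values measure the spread between libraries.

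Peritubular myoid cells are flat, contractile cells that wrap each seminiferous tubule and help to move sperm and fluid along it. Together with Sertoli cells they lay down the basement membrane of the tubule, and they are known as a source of growth factors for spermatogonia. The gate genes encode parts of the smooth muscle contractile apparatus (Acta2, Actg2, Myh11, Tagln, Cnn1, Lmod1, Synpo2) and Myocd, the coactivator that switches smooth muscle genes on. Vascular smooth muscle cells and pericytes, the mural cells of vessels, use several of the same genes, so the gate by itself does not separate them from myoid cells.

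Dhx37 itself, the targeted gene, gave 0 and 2 UMIs in the gated nuclei of WT 1 and WT 2 and 4 and 4 in those of Dhx37-/- 1 and Dhx37-/- 2. These few molecules check nothing about the deletion, since Sertoli cells were its target. Total UMIs per library ran from 51797891 to 75611263 over all barcodes. Pairs of libraries shared between 25 and 44 barcodes, and 2 gated nuclei, both in Dhx37-/- 1, had a shared barcode. The doublet caller Scrublet marked 22 gated nuclei (5, 0, 13 and 4 in WT 1, WT 2, Dhx37-/- 1 and Dhx37-/- 2) against 1609 of the 43380 other nuclei. They were kept, and each comparison was repeated without them. None of the 245 had more than 5% mitochondrial UMIs.

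WT 1 held 69 gated nuclei of 12700 barcodes, which is 0.543% (95% Wilson interval 0.430 to 0.687). WT 2 held 24 of 8641, or 0.278% (0.187 to 0.413). Dhx37-/- 1 held 97 of 10773, or 0.900% (0.739 to 1.10), and Dhx37-/- 2 held 55 of 11511, or 0.478% (0.367 to 0.621). The genotypes overlapped, with Dhx37-/- 2 between the 2 WT libraries. The mean share was 0.411% ± 0.188 (SD, n = 2) in WT and 0.689% ± 0.299 (SD, n = 2) in Dhx37-/-. The difference of 0.279 percentage points gave p = 0.67 in a two-sided exact permutation test, in which 2 libraries against 2 cannot go below p = 0.33. These intervals cover counting error only. A gate on detected genes passes deep nuclei more easily, and the median gated nucleus had 3553, 3771.5, 4210 and 4454 UMIs in WT 1, WT 2, Dhx37-/- 1 and Dhx37-/- 2, against 2851, 3594, 3230.5 and 3868.5 among the other nuclei. With each barcode thinned to 1000 UMIs, and shallower barcodes left out, the gate still took 33 in WT 1, 11 in WT 2, 52 in Dhx37-/- 1 and 26 in Dhx37-/- 2, and the 4 shares kept their order. Of the barcodes above the limit of 5000 genes, 1, 0, 9 and 9 would have passed the gate.

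**Figure D1:**
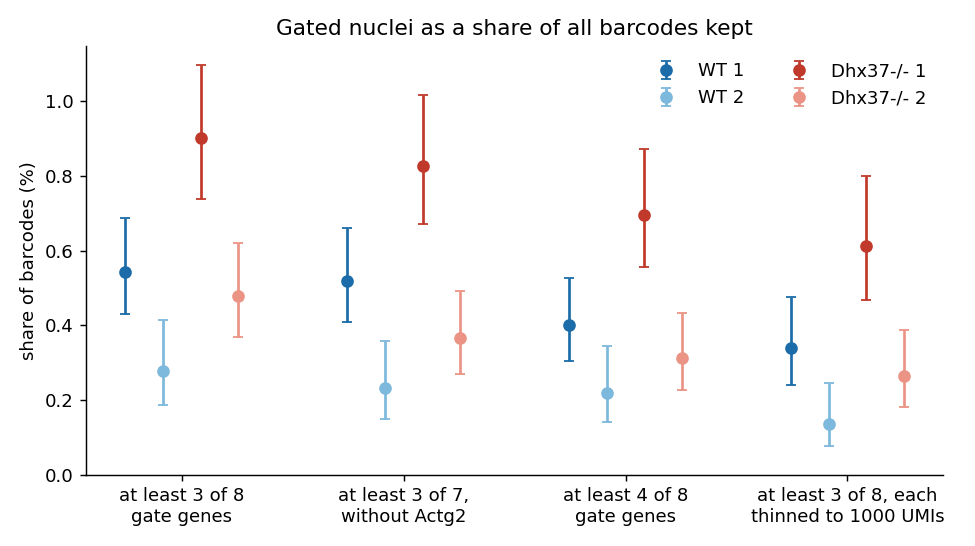
The share of kept barcodes that passed the gate (y axis, percent) in each of the 4 libraries, under the gate as used and under 3 other forms of it on the x axis; points are libraries and bars are 95% Wilson intervals. Dhx37-/- 1 was highest and WT 2 lowest under each form, and Dhx37-/- 2 stayed below WT 1.

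The gate genes did not carry the gate equally. To describe each without the gate using it, nuclei with at least 3 of the other 7 genes were taken, and the share with a UMI of the gene left out was counted. It was 88.2% for Acta2 and 86.3% for Myh11, the smooth muscle actin and myosin, against 2.33% and 1.70% of all remaining nuclei. Lmod1, which nucleates actin filaments, was at 64.3% against 0.694%, Myocd at 57.4% against 1.03%, Tagln at 51.5% against 2.20% and Cnn1 at 36.8% against 1.21%. Synpo2 was found in 6.64% of such nuclei and 0.627% of the rest.

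Actg2, the gamma smooth muscle actin, stood apart from the other gate genes. In the RefSeq annotation a long noncoding RNA gene, Gm38844, overlaps it and is not among the genes counted here, and whether reads of that gene were counted as Actg2 was not tested. It had a UMI in 34.1% of nuclei with at least 3 of the other 7 genes, but also in 15.7% of the remaining nuclei, in 13.8% of nuclei that passed a macrophage gate and in 21.8% of nuclei that passed an endothelial gate (at least 3 of 8 markers each; median 3435 and 4236.5 UMIs, against 3978 in gated nuclei). For Acta2 the macrophage figure was 3.47% and for Myh11 1.24%. In CPM, the UMIs of a gene per 1000000 UMIs of the summed nuclei, Actg2 was at 99.5, 135, 146 and 120 in the gated nuclei of WT 1, WT 2, Dhx37-/- 1 and Dhx37-/- 2, at 49.3 to 60 in the other nuclei and at 70.6 to 95.1 in barcodes of fewer than 100 UMIs, which hold free RNA. The gate itself raises the first of these values. In nuclei with at least 3 of the other 7 genes Actg2 was at 93.1, 120 and 134 CPM in WT 1, WT 2 and Dhx37-/- 1, and at 89.4 CPM in Dhx37-/- 2, which was below the 95.1 CPM of free RNA in that library.

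**Figure D2:**
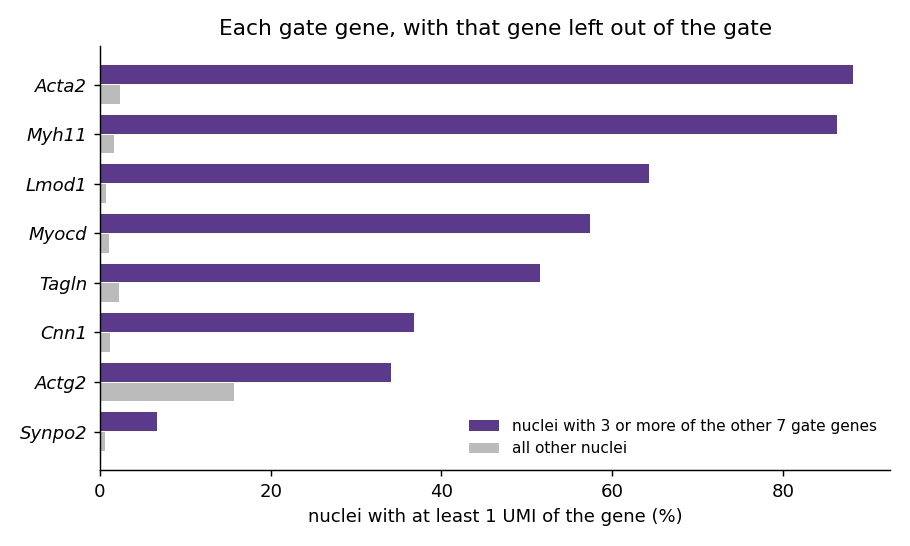
For each gate gene, the percent of nuclei with at least 1 UMI of it (x axis) among nuclei with 3 or more of the other 7 gate genes (purple) and among all other nuclei (grey), 4 libraries pooled. Acta2 and Myh11 passed 86% in the first set, while Actg2 reached 34.1% there and 15.7% in the other nuclei.

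A list of 48 smooth muscle and contractile genes outside the gate showed how the gated nuclei related to those just outside it. The 834 nuclei with exactly 2 gate genes gave 3049 CPM summed over the list, which was close to the level of nuclei with none (2766, 3297, 2857 and 2775 CPM in WT 1, WT 2, Dhx37-/- 1 and Dhx37-/- 2). The 64 nuclei with exactly 3 gave 10208 CPM and the 181 with 4 or more gave 28914 CPM. With 5 or more gate genes the level was 31677 and 34168 CPM in WT 1 and WT 2 and 28897 and 31173 CPM in Dhx37-/- 1 and Dhx37-/- 2. At exactly 3 gate genes WT 1 was at 20421 CPM and Dhx37-/- 1 at 9912 CPM, while WT 2 was at 7111 CPM and Dhx37-/- 2 at 5274 CPM, and all 4 libraries lay between 23173 and 28407 CPM at 4.

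Nuclei at the threshold were of 2 kinds. In 28 of the 64 nuclei with exactly 3 gate genes Actg2 was 1 of the 3, and these gave 2586 CPM of the contractile list, with a median of 8 of its genes detected. The other 36 gave 19640 CPM, with a median of 22.5 genes. Pooled over libraries, 8 spermatid markers summed to 9934 CPM in the 28 nuclei, 7833 CPM in the 36 and 4708 CPM in nuclei with 4 or more gate genes. Within libraries the 28 and the 36 had no common order, at 2634 and 3470 CPM in WT 1, 8612 and 4768 CPM in WT 2, 13130 and 12271 CPM in Dhx37-/- 1 and 9715 and 6452 CPM in Dhx37-/- 2. They made up 3 of 69, 4 of 24, 8 of 97 and 13 of 55 gated nuclei in WT 1, WT 2, Dhx37-/- 1 and Dhx37-/- 2. On the contractile list, then, these 28 nuclei were like nuclei outside the gate and went against the label of smooth muscle. A gate of at least 3 of the 7 genes without Actg2, added after these values were seen, took 66, 20, 89 and 42 nuclei.

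**Figure D3:**
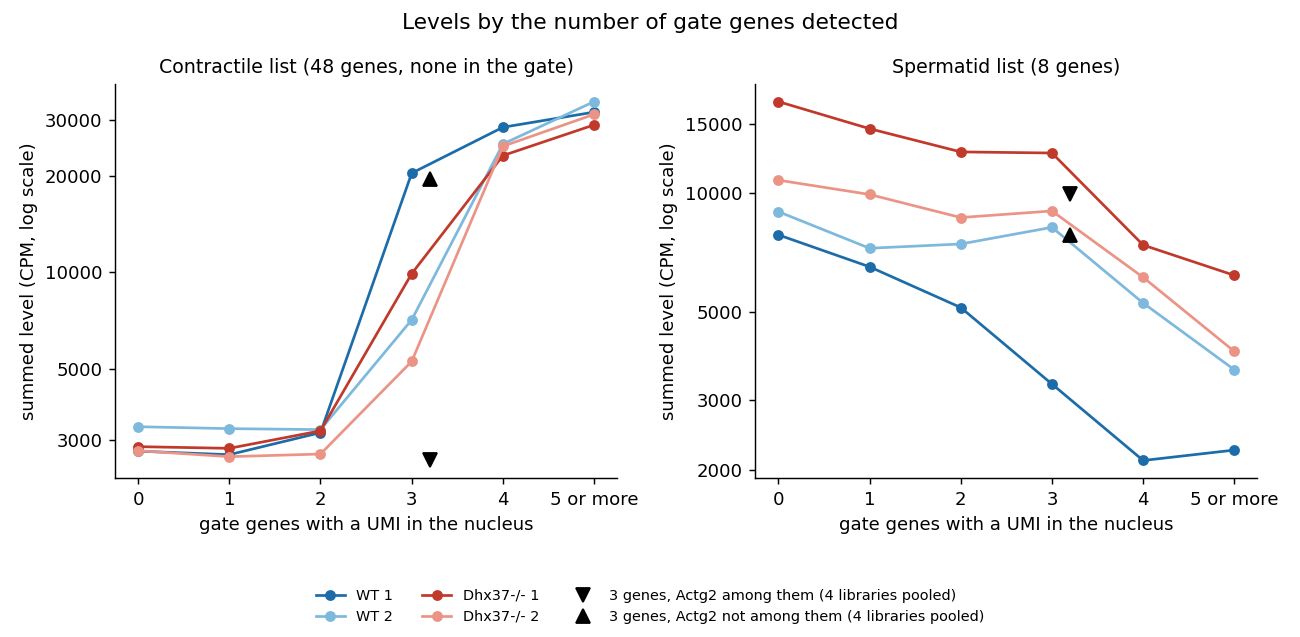
Summed level (CPM, log axis) of 48 contractile genes outside the gate (left) and of 8 spermatid markers (right) by the number of gate genes with a UMI, one line for each library; black triangles split the nuclei with exactly 3 gate genes by whether Actg2 was among them, libraries pooled. The contractile level rose from about that of ungated nuclei at 2 gate genes to 28897 to 34168 CPM at 5 or more, and the nuclei with Actg2 among 3 genes sat at the lower level.

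To ask which other genes marked the gated nuclei, their UMI sums were compared with those of all other nuclei of the same library with edgeR's quasi-likelihood test, with library as a block and Benjamini-Hochberg adjustment over 27364 genes. The 8 gate genes were left out. At an adjusted p under 0.05, 4132 genes (15.1% of those tested) were higher and 7530 (27.5%) lower in gated nuclei. The split depended on the tool and the scaling. DESeq2 called 4416 higher and 5046 lower, and edgeR with RLE in place of TMM scaling called 4693 higher and 6301 lower. The median over all genes tested was -0.74 on the log2 scale, so the values that follow are to be read against that median. Counts of calls in a list are to be read against the shares of 15.1% and 27.5%. Fewer cells of a type and less RNA per cell cannot be told apart in such sums of nuclei taken as shares of the total.

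Of the contractile list, 39 of 48 genes were higher in gated nuclei, with a median log2 fold change of 3.37. Dmd, which encodes dystrophin, the link between actin and the membrane, was at 6049, 5292, 4181 and 3778 CPM in WT 1, WT 2, Dhx37-/- 1 and Dhx37-/- 2, against 151 to 198 CPM in the other nuclei (log2 fold change 4.54 ± 0.20 SE). Prkg1, the cGMP-dependent kinase that relaxes smooth muscle, was at 3198, 2755, 2278 and 1905 CPM in the same order (4.41 ± 0.20). Cald1, which encodes caldesmon, was at 1520 to 2262 CPM (5.42 ± 0.21) and Tpm1, a tropomyosin, at 916 to 1010 CPM (6.36 ± 0.23). None of these ranges came near that of the other nuclei. Des, which encodes the muscle intermediate filament desmin, was lower in level at 62.1 to 74.6 CPM but also well separated (5.58 ± 0.37). Sgca, Filip1l, Ryr3 and Pln, the remaining 4 genes called, were lower in gated than in other nuclei.

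The 10 genes outside the gate with the largest increase were Gm48802, Carmn, Smim43, Fibin, Casq2, Chrdl1, Eln, Sh3bgr, Mfap4 and Tnnt2. Carmn, a long noncoding RNA of smooth muscle, was at 665, 580, 498 and 484 CPM in WT 1, WT 2, Dhx37-/- 1 and Dhx37-/- 2 and at 0.570 to 1.59 CPM in other nuclei (log2 fold change 8.87 ± 0.27). Gm48802 was at 72.8 to 96.0 CPM against 0.043 to 0.109 (9.76 ± 0.46). Casq2 and Tnnt2, which encode calcium-binding and contractile proteins of striated muscle, rose by 7.49 ± 0.33 and 6.81 ± 0.36 on the log2 scale. Eln and Mfap4, which encode elastin and an elastic fibre protein, rose by 7.24 ± 0.25 and 7.03 ± 0.34. Chrdl1, an inhibitor of bone morphogenetic proteins, rose by 7.31 ± 0.26. Genes were named only where the sign was the same in each library. Among the 10 genes furthest below the other nuclei were Gm49116 (-4.09 ± 0.52), F13a1 (-3.98 ± 0.49), a transglutaminase gene of macrophages, and Cntnap3 (-3.84 ± 0.61).

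A likeness to the gate genes was also measured without a test, as the mean over libraries of the log2 ratio of CPM + 10 in nuclei with 5 or more gate genes to that in nuclei with none. The 5 genes outside the gate with the highest mean ratio were Col4a3 (6.37), Carmn (6.21), Col4a4 (6.15), Fhl2 (6.08) and Tpm1 (6.07). Myh11 and Acta2, which the gate itself separates, stood at 7.65 and 7.64 on this scale.

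Basement membrane and other matrix genes followed the contractile genes. Of 41 listed, 31 were higher in gated than in other nuclei (median log2 fold change 3.19) and 3 were lower (Col15a1, Col5a1 and Tnc). Col4a3 and Col4a4 encode chains of the type IV collagen network of specialised basement membranes. Col4a3 was at 2434 and 2196 CPM in WT 1 and WT 2 and at 2355 and 2236 CPM in Dhx37-/- 1 and Dhx37-/- 2, and Col4a4 was at 3287, 3469, 3175 and 3101 CPM. In other nuclei they did not pass 65.6 CPM, and the log2 fold changes were 6.05 ± 0.21 and 5.66 ± 0.21. Both genes varied little among the 4 libraries.

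Hedgehog pathway genes formed another group, with 13 of 17 hedgehog and PDGF genes higher (median 2.60) and Sufu lower. Desert hedgehog from Sertoli cells is known to signal to the cells around the tubule, where Ptch1, Gli1 and Hhip are both parts and targets of the pathway. Ptch1, the hedgehog receptor, was at 1137 and 673 CPM in WT 1 and WT 2 and at 849 and 691 CPM in Dhx37-/- 1 and Dhx37-/- 2, against 4.68 to 16.8 CPM in other nuclei (log2 fold change 5.80 ± 0.22). The transcription factor Gli1 was at 105 to 162 CPM (5.95 ± 0.33). The decoy receptor Hhip was at 142 to 182 CPM (5.97 ± 0.30). The receptors Pdgfra, at 253 to 331 CPM, and Pdgfrb, at 14.5 to 66.0 CPM, were higher by 4.04 ± 0.23 and 4.54 ± 0.45. Pdgfrb had only 45 UMIs, found in 22 gated nuclei, and 62.2% of them lay in 5 nuclei.

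Of 20 hormone and contraction receptor genes tested, 9 were higher and 4 lower (Oxtr, Adra1a, P2rx2 and Ptger4). These were 45% and 20%, beside 15.1% and 27.5% of all genes tested. On the whole list of 24, 5 had no UMI in any gated nucleus, among them Oxtr, the oxytocin receptor, and Ptgfr, a prostaglandin receptor. The orphan receptor Nr2f2 was at 255 to 348 CPM (log2 fold change 4.32 ± 0.23). Of 17 regulators of smooth muscle genes, 10 (58.8%) were higher and 2 (11.8%), Klf4 and Klf5, were lower. In both lists the share called lower was below that of all genes tested. Fhl2, a cofactor of several of these regulators, was at 1243 to 2537 CPM (5.79 ± 0.21).

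The next list held niche genes, which are growth factors and others such as the enzyme gene Aldh1a1. Of 27 tested, 13 (48.1%) were higher and 3 (11.1%) lower, beside 15.1% and 27.5% of all genes tested. Gdnf, the growth factor that maintains spermatogonial stem cells, had only 4, 2, 11 and 7 UMIs in the gated nuclei of WT 1, WT 2, Dhx37-/- 1 and Dhx37-/- 2. They lay in 21 nuclei (8.57%, against 0.784% of the other nuclei), and its level of 14.2 to 25.5 CPM compared with 2.34 to 2.73 CPM outside (log2 fold change 2.88 ± 0.50). Csf1, a growth factor for macrophages and spermatogonia, was at 62.1 to 96.0 CPM against 5.54 to 9.75 CPM (3.10 ± 0.32).

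**Figure D4:**
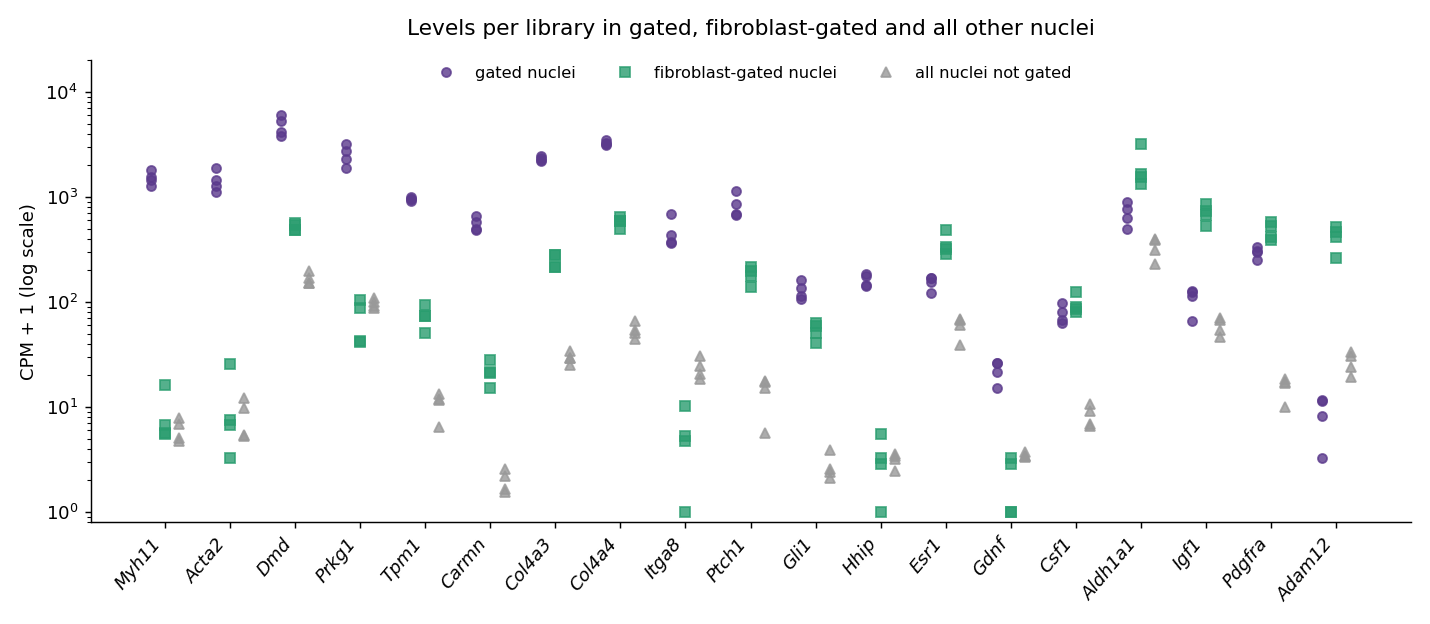
Level of 19 genes (CPM + 1, log axis) in gated nuclei (circles), in nuclei that passed a fibroblast gate but not this one (squares) and in all nuclei not gated (triangles); each symbol is 1 library. Contractile, collagen IV and hedgehog genes were highest in gated nuclei in each library, while Aldh1a1, Igf1 and Adam12 were highest in fibroblast-gated nuclei.

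The nearest stromal nuclei were those with at least 3 of 10 fibroblast markers. Of the 245 gated nuclei 138 passed that gate too, and Pdgfra had a UMI in 137, Col3a1 in 120 and Ebf1 in 182. Lum, Dpt and Pi16, also fibroblast markers, had no UMI in any gated nucleus. The 792 nuclei that passed the fibroblast gate alone (190, 116, 288 and 198 in WT 1, WT 2, Dhx37-/- 1 and Dhx37-/- 2) were compared with the gated nuclei in the same way, leaving out the genes of both gates. Of these 792, 296 also passed a gate for Leydig, macrophage, Sertoli or endothelial cells.

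Of 10704 genes tested, 923 (8.62%) were higher in gated than in fibroblast-gated nuclei and 674 (6.3%) were lower by edgeR at an adjusted p under 0.05, or 14.9% in either direction. Counts of calls in the lists below are to be read against these shares. The calls rose to 2702 (1246 higher and 1456 lower) with the gate that leaves Actg2 out and to 2877 with at least 4 gate genes, and fell to 1025 without Dhx37-/- 1, the library with most gated nuclei. Contractile genes again rose together, with 38 of 46 higher, none lower and a median of 1.99 beside -0.03 over all genes tested.

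Prkg1 was at 1905 to 3198 CPM in gated and 40.5 to 104 CPM in fibroblast-gated nuclei (log2 fold change 5.24 ± 0.20). Tpm1 (3.74 ± 0.19), Dmd (3.22 ± 0.17) and Cald1 (1.98 ± 0.15) were higher as well. Carmn was at 14 to 27 CPM in fibroblast-gated nuclei, far above its level in the other nuclei but below that in gated nuclei (4.78 ± 0.21).

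The 10 genes with the largest increase over fibroblast-gated nuclei were Gm48802, Sytl2, Col8a1, BC051019, Ltbp2, Sel1l3, Itga8, Trim67, Tnnt2 and Hhip. None of the 10 passed 9.18 CPM in the fibroblast-gated nuclei of any library, and they passed the low-count filter through the gated nuclei. Gm48802 had 90 UMIs in gated and 0 in fibroblast-gated nuclei, which at a floor of 3 UMIs over the 792 nuclei makes it at least 96.8-fold higher. Sytl2, a gene of vesicle traffic, was at 423, 197, 346 and 240 CPM in gated nuclei and at 0 to 4.59 CPM in fibroblast-gated nuclei (7.22 ± 0.36). Col8a1, which encodes a short-chain collagen of vessel walls, was at 240 to 391 CPM against 0 to 6.88 (6.96 ± 0.38). Itga8, an integrin chain of smooth muscle and other contractile cells, was at 693, 362, 373 and 433 CPM against 0 to 9.18 CPM (6.41 ± 0.30). Hhip did not pass 4.5 CPM in fibroblast-gated nuclei (6.24 ± 0.37).

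Matrix genes differed less evenly. Of 32 tested, 12 were higher in gated than in fibroblast-gated nuclei, with Col4a3 at 3.25 ± 0.16, Col4a4 at 2.51 ± 0.15 and Itga1, a collagen-binding integrin chain, at 3.65 ± 0.19. Another 4 were lower: Lama4, Nid2, Col15a1 and Col5a1, of which Lama4 and Col15a1 changed by -2.20 ± 0.33 and -2.07 ± 0.26. Lama2, a laminin chain, was at 967 to 1866 CPM in gated and 1102 to 1492 CPM in fibroblast-gated nuclei and was not called.

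The hedgehog and PDGF list split in the same way, with 6 of 14 higher (Ptch1, Gli1, Gli2, Hhip, Pdgfc and Pdgfd) and Cdon, a co-receptor, lower. The call of Cdon was lost in 5 alternatives, DESeq2 among them, with an estimate of -0.47 without Dhx37-/- 1, and that of Pdgfd in 3, without WT 2 and without Dhx37-/- 1 among them. Ptch1 was higher by 2.19 ± 0.18, Gli2 by 1.45 ± 0.19 and Gli1 by 1.35 ± 0.23 on the log2 scale. Pdgfrb was not called (0.36 ± 0.38, edgeR adjusted p = 0.65). Pdgfra, a gene of the fibroblast gate and so not tested, was at 389 to 582 CPM in fibroblast-gated nuclei. Among receptors, the endothelin receptor Ednra was higher by 0.78 ± 0.18, and Adra1b and Npr2 were higher too. Esr1, the estrogen receptor, was lower at 121 to 167 CPM against 285 to 484 CPM (-1.19 ± 0.19), as were Nr3c1, Avpr1a and Npr1. Nr2f2 at 0.34 ± 0.17 (adjusted p = 0.22 by edgeR) was not called.

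Niche genes went mostly the other way. Of 20 tested, Gdnf alone was higher in gated nuclei, by 3.88 ± 0.85, at 0, 0, 2.29 and 1.87 CPM in the fibroblast-gated nuclei of WT 1, WT 2, Dhx37-/- 1 and Dhx37-/- 2. It had 0, 0, 3 and 2 UMIs there and passed the low-count filter through the gated nuclei. Lower in gated nuclei were 10, among them Igf1 at 65.4 to 127 CPM against 533 to 864 CPM (-2.70 ± 0.19) and Aldh1a1, which makes retinoic acid, at 497 to 888 CPM against 1335 to 3175 CPM (-1.38 ± 0.20). Kitl (-2.89 ± 0.23), which feeds the Kit receptor of spermatogonia, Cxcl12 (-4.11 ± 0.39) and Inhba (-5.10 ± 0.74) were chosen from the same 10 after their values were seen. Csf1 (-0.29 ± 0.24, adjusted p = 0.53) and Nrg2 (0.39 ± 0.22, adjusted p = 0.31) were not called by edgeR. The Leydig gate was passed by 276 of 792 fibroblast-gated and 27 of 245 gated nuclei. The part of Leydig RNA in the niche gene differences was not tested.

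The genes furthest below their level in fibroblast-gated nuclei included 6 with no UMI in any gated nucleus. These 6 passed the low-count filter through the fibroblast-gated nuclei. At a floor of 3 UMIs over the gated nuclei, AA536875 was at least 31.1-fold lower, Lvrn 29.9-fold, Gm28836 17.5-fold, Ifi204 14.5-fold, Dio3os 11.2-fold and Ly6a 9.09-fold. Adam12, a metalloprotease, was at 2.28 to 10.7 CPM against 263 to 518 CPM (-6.02 ± 0.33), and Entpd2, an ectonucleotidase, had 2 UMIs (-5.41 ± 0.52). All 8 Leydig markers were also lower in gated nuclei, among them Prlr (-3.47 ± 0.21) and Akr1cl (-1.85 ± 0.22), beside 27 of 245 gated and 276 of 792 fibroblast-gated nuclei that passed the Leydig gate. The part of Leydig RNA in these differences was not tested.

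Mural markers were counted to see how far the gate also took cells of vessel walls. Of the 245, 118 had none of Rgs5, Notch3, Cspg4, Mcam, Abcc9, Kcnj8, Higd1b and Gja4, 91 had 1 of them and 36 had 2 or more, against 81 with 2 or more among 43380 other nuclei. The markers behind this were mainly Mcam (71 nuclei), Cspg4 (48) and Abcc9 (35). Notch3 had a UMI in 12 nuclei, Rgs5, the usual pericyte gene, in 3, Higd1b in 2, Kcnj8 in 2 and Gja4 in 1. The 36 mural-marked nuclei held 1168 CPM of Ptch1, 2840 CPM of Col4a3 and 710 CPM of Carmn, and the 118 with no mural marker held 626, 1804 and 360 CPM of these genes. The 91 nuclei with 1 mural marker held 1050, 2789 and 710 CPM of the same 3 genes. Hhip and Itga8 were at 135 and 423 CPM in the 36, at 217 and 584 CPM in the 91 and at 128 and 395 CPM in the 118, so the mural-marked nuclei were below the 91 in Hhip and Itga8. The 118 held 52 of the 64 nuclei with exactly 3 gate genes and the 36 held 1, so the 2 sets also differ in threshold nuclei.

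Only 3 of the 8 mural markers passed the low-count filter against fibroblast-gated nuclei. All 3 were higher: Mcam by 6.10 ± 0.47, Cspg4 by 1.33 ± 0.33 and Abcc9 by 1.01 ± 0.32. Mcam had 2, 0, 1 and 1 UMIs in the fibroblast-gated nuclei of WT 1, WT 2, Dhx37-/- 1 and Dhx37-/- 2. It passed that filter through the gated nuclei. Notch3, not tested, was at 28.4, 0, 11.4 and 7.27 CPM in gated and 7.12, 13.5, 11.5 and 10.3 CPM in fibroblast-gated nuclei. Without the 36 mural-marked nuclei Cspg4 and Abcc9 were no longer called (0.18 and -0.067), a fall that the choice of these nuclei fixes, since both genes were used to mark them. Abcc9 also lost its call in 6 other alternatives, among them DESeq2, the fit without doublets and the fits without Dhx37-/- 1 and without Dhx37-/- 2. By library, 11 of 69, 2 of 24, 17 of 97 and 6 of 55 gated nuclei were mural-marked, or 15.9% and 8.33% in WT 1 and WT 2 and 17.5% and 10.9% in Dhx37-/- 1 and Dhx37-/- 2. The genotypes overlapped and differed by 2.08 percentage points (p = 0.67, two-sided exact permutation test), a value whose sign turned when 1 or 3 mural genes were asked for in place of 2.

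The last comparison asked whether gated nuclei differed between the genotypes. edgeR's quasi-likelihood test on the 4 sums, 2 for each genotype, called 0 of 6768 genes after Benjamini-Hochberg adjustment (0%), with 346 genes higher and 192 lower in Dhx37-/- at an unadjusted p under 0.05. DESeq2 also called 0, with 132 genes at an unadjusted p under 0.05. The sums held 281387 and 96556 UMIs in WT 1 and WT 2 and 439406 and 275037 UMIs in Dhx37-/- 1 and Dhx37-/- 2, and WT 2, with 24 nuclei, was the thinnest. In 2573 of the genes tested (38%) the 2 genotypes did not overlap.

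The count of calls moved with small changes of the gate or the libraries. It was 17 without Actg2 in the gate (9 higher and 8 lower), 8 with at least 4 gate genes and 1 without nuclei of other gates. It was 53 without WT 1, 239 without WT 2, 1 without Dhx37-/- 1 and 7 without Dhx37-/- 2. Leaving out a library leaves its genotype with 1, so the spread in these fits comes from the other genotype alone and the lone library is assumed to vary likewise.

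The 3 genes with the smallest p among those higher in Dhx37-/- were Egfem1, Col12a1 and Ptgds. Egfem1 had 1 and 0 UMIs in WT 1 and WT 2 and 82 and 26 in Dhx37-/- 1 and Dhx37-/- 2 (log2 fold change 5.48 ± 0.82, edgeR adjusted p = 0.051), and the 82 UMIs lay in 8 nuclei and the 26 in 2. Col12a1, a fibril-associated collagen, had 0, 1, 62 and 19 UMIs in the same order (5.05 ± 0.91, edgeR adjusted p = 0.096), from 17 nuclei in all. Ptgds, a prostaglandin D synthase, had 5 and 1 UMIs in WT and 69 and 33 in Dhx37-/- (3.05 ± 0.52, edgeR adjusted p = 0.096). Its level in free RNA moved with this, at 122 and 116 CPM in WT 1 and WT 2 and 655 and 493 CPM in Dhx37-/- 1 and Dhx37-/- 2, and the part of free RNA in it was not tested.

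Rn18s-rs5 and Ccn1 were among the 3 genes with the smallest p of those lower in Dhx37-/-. Rn18s-rs5, whose sequence overlaps that of 18S ribosomal RNA, was at 22190 and 7571 CPM in WT 1 and WT 2 and at 3914 and 4494 CPM in Dhx37-/- 1 and Dhx37-/- 2 (-1.91 ± 0.39, edgeR adjusted p = 0.22). It was as high in the other nuclei of WT 1, at 19755 CPM against 3020 to 3995 CPM in the other nuclei of the remaining libraries. Ccn1, a matricellular gene that responds to stretch and serum, was at 163 and 104 CPM in WT 1 and WT 2 and at 43.2 and 43.6 CPM in Dhx37-/- 1 and Dhx37-/- 2 (-1.77 ± 0.40, edgeR adjusted p = 0.27). None of these genes passed the test, but in the 18 alternatives Egfem1 was called in 8, Col12a1, Ptgds and Rn18s-rs5 in 6 each and Ccn1 in 1. These counts include fits with 1 library in a genotype and a fit that pairs libraries by their number, which the labels do not support. The limits of 25% and 5% mitochondrial UMIs and of 1000 UMIs took out no gated nucleus. Those alternatives repeated the main fit and could not change a call.

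No smooth muscle gene passed the test between the genotypes, and most estimates of the group were below 0. Of 41 contractile genes tested 33 had a lower estimate, with a median of -0.24 beside -0.02 over all genes tested. The most abundant, Dmd and Prkg1, gave -0.58 ± 0.26 (edgeR adjusted p = 0.61) and -0.58 ± 0.27 (edgeR adjusted p = 0.63). Neither overlapped between the genotypes, as was so for 16 of the 41 contractile genes and for 38% of all genes tested. With the gate that leaves Actg2 out, 24 of 41 had a lower estimate and the median was -0.05, and with at least 4 gate genes 22 of 40 did and the median was -0.02. With no upper limit on genes per nucleus it moved the other way, to 39 of 44 and a median of -0.60. Sgcd, a sarcoglycan gene, was called higher in 5 of the 18 alternatives, the gate without Actg2 among them, and Pde3a and Slmap were called lower without WT 2, where WT is 1 library. These 3 genes were named after their values were seen. The nuclei with Actg2 among exactly 3 gate genes, 13 of 55 in Dhx37-/- 2 and 3 of 69 in WT 1, differ in number between the libraries, and their part in the estimates was not tested beyond these counts.

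Most estimates of the related lists were below 0 as well, beside 3487 of all 6768 genes tested. Regulators of smooth muscle genes had a lower estimate in 11 of 12 (median -0.25), matrix genes in 19 of 29 (-0.17), hedgehog and PDGF genes in 9 of 13 (-0.20) and receptors in 7 of 8 (-0.24). With at least 4 gate genes, regulators had a lower estimate in 7 of 11 (median -0.13) and receptors in 4 of 7 (median -6.3e-05), and matrix and hedgehog and PDGF genes had medians of 0.08 and 0.16. With no upper limit on genes the medians of these 4 lists fell to between -0.53 and -0.49, with a lower estimate in 13 of 13, 8 of 8, 27 of 31 and 14 of 14. Without WT 1, 10 of 14 hedgehog and PDGF genes had a higher estimate (median 0.29). Col4a3 was not called, at -0.08 ± 0.27.

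Markers of other cells were measured beside these values. All 8 spermatid markers had a higher estimate in Dhx37-/- (median 0.93, 5 of them at an unadjusted p under 0.05), and their summed level in gated nuclei was 2431 and 5209 CPM in WT 1 and WT 2 and 7920 and 6330 CPM in Dhx37-/- 1 and Dhx37-/- 2. In free RNA the same 8 genes summed to 19096 and 29941 CPM in WT and 47708 and 35051 CPM in Dhx37-/-, with the 4 libraries in the same order. The 8 Leydig markers summed to 558 and 435 CPM in WT and 676 and 753 CPM in Dhx37-/-, and 4 of 5 tested had a higher estimate (median 1.22). Without the 32 nuclei that passed the gate of another cell type 2 Leydig markers were tested, both with a lower estimate (median -0.31). Of these 32 nuclei 27 passed the Leydig gate, so a fall of the Leydig markers is fixed by the choice of nuclei. No spermatid gate was used in that choice, and all 8 spermatid markers still had a higher estimate (median 0.98). Sertoli markers summed to 78.2 and 93.2 CPM in WT and 148 and 131 CPM in Dhx37-/-, with Fshr at 0, macrophage markers to 49.8 and 238 CPM and 127 and 138 CPM, with Cd163 at 0, and endothelial markers to 42.6 and 72.5 CPM and 68.3 and 80.0 CPM, with Mecom at 0. Without the same nuclei 31 of 42 contractile genes had a lower estimate (median -0.16). The part of free RNA in the genotype differences was not tested.

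**Figure D5:**
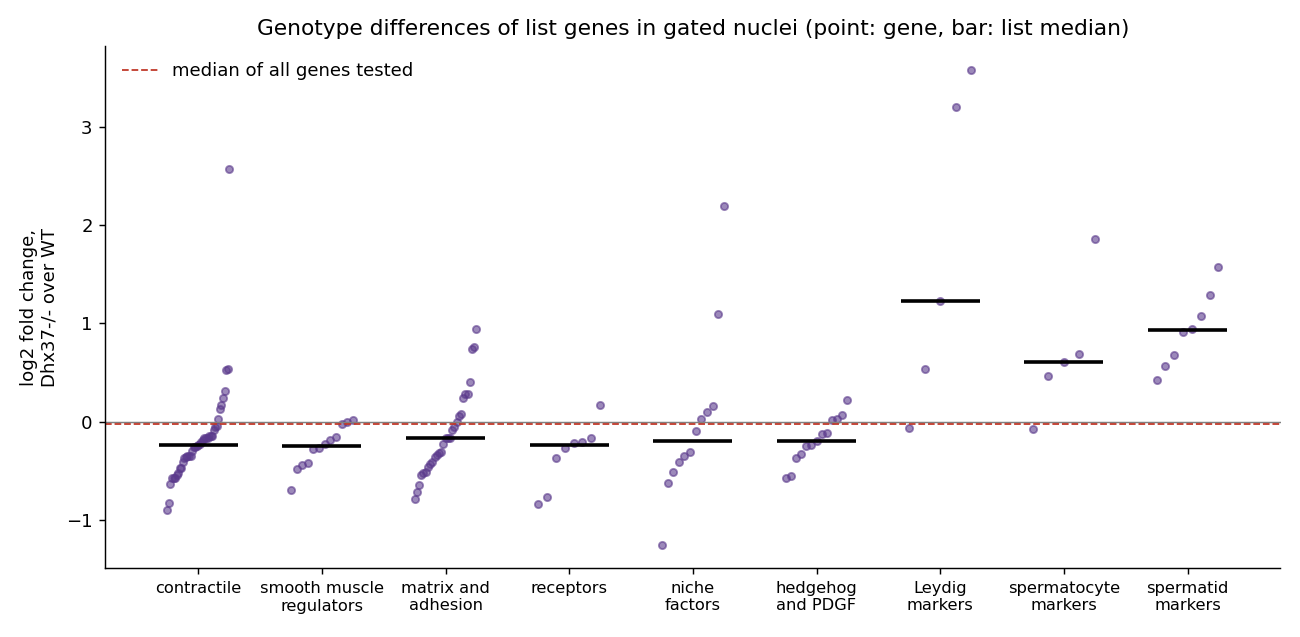
Log2 fold change between Dhx37-/- and WT in gated nuclei (y axis) for each tested gene of 9 lists (points), with the list median (black bar) and the median of all genes tested (red dashed line, -0.02). No point passed the adjusted threshold; spermatid markers lay above 0 in all 8 members and contractile genes below 0 in 33 of 41.

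Of 20 genes of p53 signalling and apoptosis, 8 were higher and 3 lower in gated than in other nuclei by edgeR, beside 15.1% higher and 27.5% lower among all genes tested, and the list summed to 817 to 880 CPM against 475 to 536 CPM. A large part of that gap was Bcl2, which blocks apoptosis, at 178 to 311 CPM against 7.21 to 16.2 CPM. Cdkn1a (-2.53 ± 0.73) and Ppm1d (-0.84 ± 0.23) were among the 3 called lower. The summed level was not particular to gated nuclei, since fibroblast-gated nuclei had 760 to 917 CPM. Against those, 2 of 10 genes tested were higher and 1 lower, beside 8.62% and 6.3% of all genes, with a median of 0.07. Trp53 and Cdkn1a themselves were sparse. Trp53 had 5 and 4 UMIs in WT 1 and WT 2 and 10 and 9 in Dhx37-/- 1 and Dhx37-/- 2, and Cdkn1a, the cell cycle inhibitor that p53 induces, had 0, 1, 1 and 1. Neither reached the minimum for the genotype test. Between the genotypes Bcl2 was at 306 and 311 CPM in WT and 184 and 178 CPM in Dhx37-/- (-0.83 ± 0.30, edgeR adjusted p = 0.52). The genotypes did not overlap in Bcl2, as in 38% of all genes tested, and the difference did not pass. Of the 6 genes of this list that were tested, 3 had a higher and 3 a lower estimate.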

How the data were processed

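Single nuclei from whole testis were captured with 10x Genomics 3' chemistry, and the authors deposited raw UMI counts for each gene and barcode, made with Cell Ranger, over all barcodes and without filtering of cells. The study's methods name the mm39 build, whereas the submitters' processing notes list GRCm38 and mm10. No coordinates were used, so this does not touch the values.

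Barcodes with at least 500 UMIs and 500 to 5000 genes were kept and gated on 8 genes, 3 of which had to have a UMI. Doublets were scored with Scrublet (scanpy 1.11.5) and kept, and no correction for free RNA was made. The members and gene lists were chosen with earlier results of these data known. Nuclei are not replicates, so UMIs were summed per library and class and tested with edgeR 4.0.16 (R 4.3.3, TMM scaling, low-count filter, quasi-likelihood test, Benjamini-Hochberg adjustment at 0.05). The genotype fit used the 4 sums of gated nuclei, and fits between classes had library as a block and left out the genes of the gates. DESeq2 1.42.0 was an alternative. Errors of log2 fold changes are approximate standard errors (SE). For edgeR they were derived as the size of the log2 fold change over the square root of its F value. CPM scale the UMIs of a summed class to 1000000. Shares were compared by exact permutation tests over libraries.

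Genes named were Dhx37, the gate genes, the 3 with the smallest p per direction between genotypes, the 10 with the largest called change per direction between classes (same sign in each library, at least 20 CPM in the higher class), the 4 most abundant of each list, chosen genes such as Gdnf and Ptch1, and the 5 nearest to the gate genes. Some genes that this rule names are not reported here. Other genes were named after their values were seen. On simulated counts of 6137 genes shaped like the genotype comparison, edgeR recovered 83.1% of 4-fold and 100% of 16-fold changes, with 0.185% false calls, and DESeq2 recovered 48.3% and 88.5%. The simulation gave every gene the same dispersion. It therefore does not show the recovery for genes that vary more, such as those with most UMIs in a few nuclei. Alternatives varied the gate, the filters on nuclei and genes, the scaling, the tool and the libraries.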

Additional observations from a re-analysis of the deposited data

How the results depend on the processing

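The share of gated nuclei stayed higher on average in Dhx37-/- under each alternative, with differences of 0.0673 to 0.490 percentage points when 1 library was left out. The difference fell from 0.279 to 0.164 percentage points without gated nuclei that also passed a Leydig, macrophage, Sertoli or endothelial gate. Those numbered 1, 2, 15 and 14 in WT 1, WT 2, Dhx37-/- 1 and Dhx37-/- 2. The mural-marked share turned in direction, to -1.92 percentage points with at least 1 mural gene and -0.44 with at least 3, and ran from -1.72 to 5.88 when 1 library was left out. The cause was not tested. Genes called between genotypes numbered 8 with at least 4 gate genes, 9 with no upper limit on genes, 1 without nuclei of other gates, 17 without Actg2 in the gate (an alternative chosen after seeing the data), 18 with at least 1 UMI in total, 7 with at least 10 UMIs in every sum, and 1 to 239 when 1 library was left out. With the replicate block the count was 21, but the labels do not say that equal numbers mark paired animals and same-numbered libraries deviated together only weakly (r = 0.06 across genes), so the numbers were not taken as a pairing.

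Against the other nuclei, 1907 genes were called with at least 10 UMIs in every sum, where fewer genes were tested, and 8450 to 10218 when 1 library was left out. RLE scaling moved the median over all genes from -0.74 to -0.55. Against fibroblast-gated nuclei the counts were 2877 with at least 4 gate genes, 2702 without Actg2, 631 with at least 10 UMIs in every sum and 1025 to 1543 when 1 library was left out. Of 60 genes named in that comparison, 53 kept their direction and their side of the threshold in all alternatives run. Abcc9 turned to -0.067 and Cspg4 lost its call without mural-marked nuclei, which both genes help to define, so that this fall is fixed by the choice. Abcc9 also lost its call in 6 others, Foxp1 in 10, Cdon in 5, Mef2a in 4 and Pdgfd in 3, and Nr2f2 was called in 2. The sum of gated nuclei was smallest in WT 2, which gave 96556 UMIs from 24 gated nuclei.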

Other observations

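A small set of gated nuclei held most UMIs of Egfem1 and Col12a1, which are among the 3 genes with the smallest p of those higher in Dhx37-/-. Of the 245 gated nuclei, 9 had UMIs of both Egfem1 and Col12a1, 7 in Dhx37-/- 1, 2 in Dhx37-/- 2 and 0 in either WT library. They held 104 of the 109 Egfem1 UMIs and 67 of the 82 Col12a1 UMIs, and 71 of 129 UMIs of Sgcd, a sarcoglycan gene. None of the 9 was marked as a doublet, 8 passed the fibroblast gate and 1 passed a Leydig, macrophage, Sertoli or endothelial gate. Summed over the 9 nuclei, Col3a1 was at 2732 CPM, Col1a1 at 1053 CPM and Dcn at 740 CPM, against 209, 107 and 106 CPM in the other 236 gated nuclei. Pdgfra, also a fibroblast marker, was not raised, at 256 CPM against 290 CPM. Ptch1 and Carmn were at 171 and 114 CPM against 891 and 559 CPM, while Col4a3 and Myh11 were at 2219 and 1195 CPM against 2335 and 1469 CPM. Itga8 and Acta2 were higher in the 9 nuclei, at 1081 and 1707 CPM against 449 and 1487 CPM. These nuclei were chosen for their values, so no test was made.

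Beyond the 5 genes nearest to the gate genes, others with a high mean log2 ratio between nuclei with 5 or more gate genes and nuclei with none were Cald1 (5.87), the matricellular gene Ccn2 (5.71), Rbpms (5.64), an RNA-binding protein of smooth muscle splicing, and the sodium-calcium exchanger Slc8a1 (5.56). They were named after their values were seen.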
